A study of Mus musculus with 6 samples.

Results

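Genes for Cftr and for the channels, exchangers, pumps, aquaporins and carbonic anhydrases that move ions, bicarbonate and water were examined in mouse pancreas. The members were 43 genes listed by function. Of these, 28 had a probe set assigned to that gene alone in the platform annotation, by current symbol or synonym, which gave 40 of the 12488 probe sets on the array; the whole table names 8252 genes. Total RNA from 6 male mice was measured on 6 one-colour oligonucleotide arrays, 1 mouse per array. The 3 control mice were CFTR+/+ and aged 56 or 57 days, and the 3 mice called CF here were CFTR-/- and aged 56 to 58 days. All 6 were gastrin+/-, on a background of 95% black6 and 5% 129Sv, and received Peptamen, a liquid peptide diet, from age 10 days against blockage of the gut. Every mouse, controls included, therefore had a reduced gastrin gene dose and the same diet. The RNA came from whole tissue, so fewer cells of a type and less RNA per cell cannot be told apart.

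Pancreatic juice is rich in bicarbonate, which is secreted mainly by duct cells. In these cells Cftr is the apical channel through which chloride and bicarbonate leave. Slc26 exchangers work beside it, Slc4 proteins and carbonic anhydrases supply bicarbonate, Slc12a2 loads chloride, potassium channels and the sodium pump hold the driving force, and water follows through aquaporins. Loss of CFTR in humans leaves thick, acidic secretions and damages the gland.

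The array medians lay between 207.8 and 234.4 (intensity, linear scale). A probe set was tested where at least 3 of 6 arrays exceeded 140.2, the 40th percentile of all values, and values under the 20th percentile, 47.6, were set to it before taking log2. This left 7739 probe sets over the whole table and 30 of the 40 transport probe sets, from 23 genes. All of the 30 had arrays of both genotypes above the filter. The other 10 were too dim to test, and 5 genes had only such probe sets. The remaining 15 listed genes, among them Slc26a3, Slc26a6, Slc9a2, Slc9a3, Ano1, Aqp5, Aqp12 and the 3 subunits of the epithelial sodium channel, Scnn1a, Scnn1b and Scnn1g, were not analysed here; neither were Kcne3, Kcnj16, Car9, Clca2 and Atp2b1. The tissue label was checked against exocrine markers: over the 6 arrays the chymotrypsinogen gene Ctrb1 read 91687 to 135426, and Cel, a lipase gene, 91304 to 124848. With 3 arrays per group, the number of arrays limits the precision of every value.

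Across the transport genes, 0 of 30 probe sets passed in the comparison of CF with control (limma, adjusted p under 0.05), against 0.0646% of all probe sets tested. The count was also 0 at an adjusted p under 0.1, and the lowest adjusted p was 0.26, for Atp1b3; every other transport probe set had 0.73 or more. At an unadjusted p under 0.05 there was 1 transport probe set, that of Atp1b3, against 7.38% of all probe sets. The 3 CF arrays lay all above the 3 control arrays in 3 transport probe sets of 30, those of Atp1b3, Kcne1 and Clcn3 (1 of 4 for that gene), against 7.37% of all. They lay all below in 0 of 30, against 5.62% of all. In sign, 16 differences were positive and 14 negative. The median log2 difference was 0.02, against 0.00 over all probe sets, and the median size was 0.22 against 0.23. In this fit the counts and the sizes of the transport genes were thus close to those of the array as a whole.

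**Figure D1:**
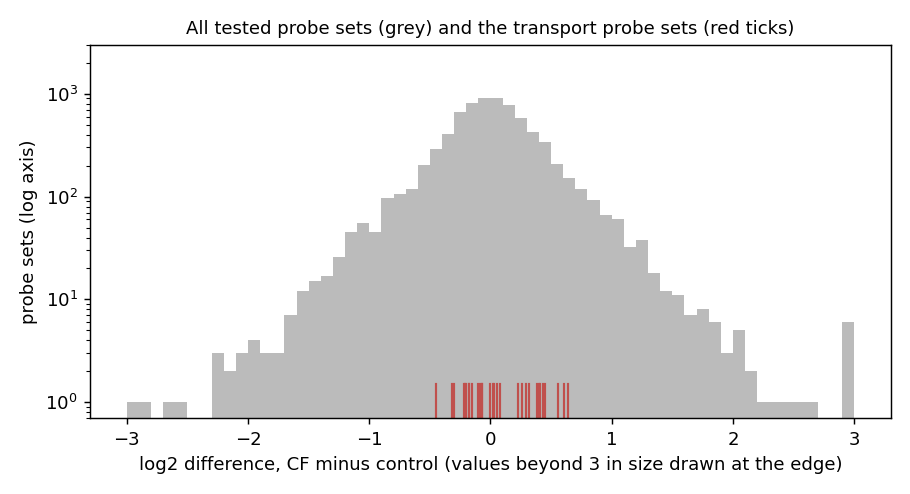
Histogram of the log2 difference, CF minus control, of the 7739 probe sets tested (grey; the vertical axis is logarithmic), with the 30 transport probe sets as red ticks along the base; values beyond 3 in size are drawn at the edge. The ticks run from -0.45 to 0.64, within the body of the distribution.

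The fit also gives what size of change these arrays leave possible. The 95% interval of the difference, not adjusted for the number of tests, lay within a 2-fold change in either direction for 17 of the 30 transport probe sets (56.7%), against 55.1% of all. These intervals hold the spread between title suffixes, which were taken to pair the arrays. With the suffix as a block, 18 of 30 lay within that range (60%), against 60.6% of all. In that fit 1 of the 30 had an unadjusted p under 0.05 in limma, against 908 of all 7739 probe sets. For the brighter Aqp1 probe set the interval was -1.12 to 1.18 without the block and -0.51 to 0.57 with it, and for a Car4 probe set -1.21 to 1.86 and -0.47 to 1.12. For Kcnn4 it was wide in both fits, -1.11 to 1.97 and -1.03 to 1.89. Where the interval reaches past a 2-fold change, a difference that missed the threshold does not show equal expression.

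**Figure D2:**
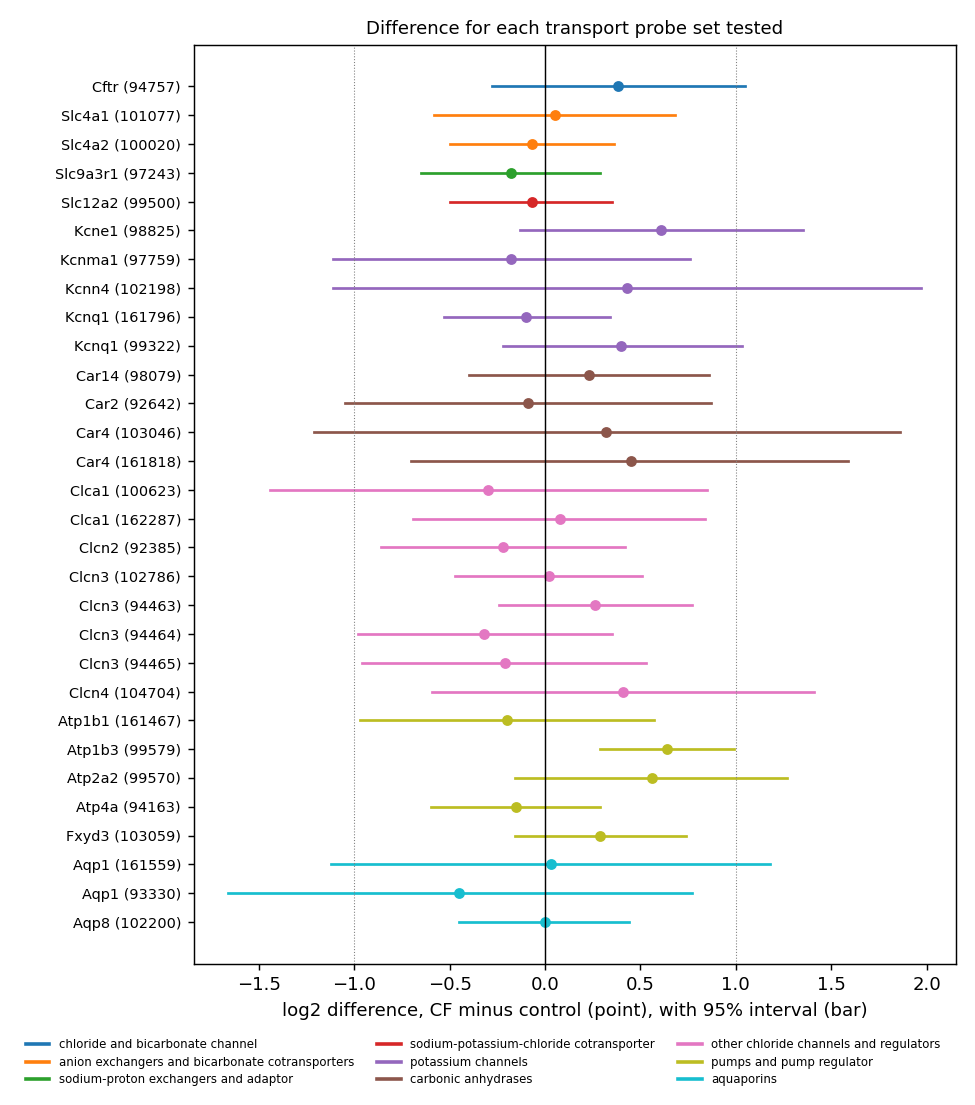
Log2 difference, CF minus control (points), with its unadjusted 95% interval (bars), for the 30 transport probe sets tested, coloured by role; dotted lines mark a 2-fold change. The interval of Atp1b3 alone, 0.29 to 0.99, leaves out 0.

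Cftr itself, the gene that differs by design, gave no usable check of the genotype labels. The only Cftr probe set bright enough gave 318, 223 and 338 on the control arrays (replicates 1, 2 and 3, the order used throughout) against 467, 314 and 364 on the CF arrays. The groups overlapped, with CF replicate 2 below 2 of the control arrays. The log2 difference, CF minus control here, was 0.38 ± 0.29 (SE; n = 3 per group), with an adjusted p of 0.82 in limma. Between arrays that share a title suffix it was 0.55, 0.49 and 0.11. The second probe set read 7.8 to 12.8 in controls and 2.8 to 10 in CF, and the third 4.4 to 24.5 and 4.5 to 45.5, all under the floor of 47.6. No source used here says which part of Cftr these probes read or which part the CFTR-/- allele lacks.

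Cftr is the gene whose genotype the labels compare. Atp1b3 had the smallest p of the transport genes, and Atp1b1 encodes the alternative beta subunit of the same pump. None of them passed the threshold. The start regions of these 3 transport genes are printed for description only. They come from RefSeq (build GRCm38.p6), 5′ to 3′ on the strand of the gene, from 250 bases before to 50 bases after an annotated start. Cftr lies at chr6:18170437-18170736 on the plus strand, Atp1b3 at chr9:96364382-96364681 on the minus strand (the farther upstream of its listed starts) and Atp1b1 at chr1:164458306-164458605 on the minus strand. Capitals mark 3 motifs on either strand: GGGCGG (the GC box), CCAAT, and TGACNTCA (the cAMP response element with 1 free base); overlapping matches are counted separately.
Cftr: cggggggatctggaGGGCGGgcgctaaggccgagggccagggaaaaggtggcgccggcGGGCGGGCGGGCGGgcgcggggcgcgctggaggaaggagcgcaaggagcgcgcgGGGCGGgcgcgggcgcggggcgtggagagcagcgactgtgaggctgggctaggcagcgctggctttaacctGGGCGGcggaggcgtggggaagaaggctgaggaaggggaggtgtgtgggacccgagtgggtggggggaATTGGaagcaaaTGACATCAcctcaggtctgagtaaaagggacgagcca
Atp1b3: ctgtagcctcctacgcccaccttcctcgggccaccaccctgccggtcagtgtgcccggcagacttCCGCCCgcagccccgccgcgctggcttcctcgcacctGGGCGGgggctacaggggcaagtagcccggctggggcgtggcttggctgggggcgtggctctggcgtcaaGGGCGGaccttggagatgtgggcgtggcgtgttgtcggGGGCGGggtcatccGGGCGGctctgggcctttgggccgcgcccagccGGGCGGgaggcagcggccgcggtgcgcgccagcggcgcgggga
Atp1b1: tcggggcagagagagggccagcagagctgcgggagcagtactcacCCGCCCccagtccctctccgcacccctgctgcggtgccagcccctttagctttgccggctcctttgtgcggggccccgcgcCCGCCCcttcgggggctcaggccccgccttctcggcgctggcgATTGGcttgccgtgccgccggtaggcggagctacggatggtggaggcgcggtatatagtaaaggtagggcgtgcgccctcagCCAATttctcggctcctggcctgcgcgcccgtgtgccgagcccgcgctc
The Cftr window held 6 GC boxes, 1 CCAAT motif and 1 TGACNTCA, and its bases were 71.3% G or C. The Atp1b3 window held 6 GC boxes and neither of the others (76% G or C). The second Atp1b3 start region, chr9:96363666-96363965 on the minus strand and not printed, held none of the 3 motifs (74.7% G or C), so the match depends on which start is read. The Atp1b1 window held 2 GC boxes and 2 CCAAT motifs (71% G or C). Of 32817 start regions of the same length, 35.6% held a GC box, 37.4% CCAAT and 8.84% TGACNTCA. A match describes the letters only. RefSeq entries of this kind were found for 20 of the 28 measured genes.

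Among the pumps, Atp1b3 was picked for a full account because it had the smallest p of the transport genes. It encodes the beta-3 subunit of the sodium-potassium ATPase, which guides the catalytic subunit to the plasma membrane. Controls read 1832, 1975 and 1841, and CF arrays 3118, 3168 and 2555. Every CF array lay above every control array, and the lowest CF value exceeded the highest control value by more than either group's SD. The group means were 1882 ± 80.3 and 2947 ± 340 (SD, n = 3 per group), a 1.56-fold difference on the log2 scale (0.64 ± 0.16 SE). After adjustment over all 7739 probe sets the difference did not pass (adjusted p = 0.26 in limma). Between arrays that share a title suffix, the log2 difference was 0.77, 0.68 and 0.47. With that suffix as a block the adjusted p was 0.19, and it ran from 0.14 to 0.82 over all the alternatives.

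Lists of cell type markers were read beside this difference, with the brightest probe set of each gene. Of 16 duct markers (transport genes left out), 12 were measured. Of the 11 tested, 9 read higher in CF, and 0 passed in limma (adjusted p under 0.05). Against 7.37% of all probe sets tested, 5 of the 11 had every CF array above every control array. These were Elf3, an epithelial transcription factor (control mean 859 ± 54, CF mean 1625 ± 84.5, SD; log2 difference 0.92 ± 0.16 SE, adjusted p = 0.11 in limma), the tight junction gene Cldn4 (1.58 ± 0.54), the adhesion gene Epcam (0.66 ± 0.29), the keratin Krt18 (0.62 ± 0.16) and the transcription factor Onecut1 (0.34 ± 0.29). Elf3 thus had a smaller p than Atp1b3. The keratins Krt19 and Krt8 each differed by 0.04 with overlap. Krt7, another keratin and too dim to test, read 34.5 to 69.7 in controls and 45.8 to 61.2 in CF. The lists were chosen with earlier results of these data known, so the 5 of 11 is a description and no test. The summed duct signal, 60079 to 67578 in controls and 58888 to 71591 in CF, was mostly Tff2, which read 35824 to 46235. For 7 acinar markers of 14 the sum was 485212 to 667153 in controls and 454127 to 505244 in CF. Of these 7, all tested, 6 read lower in CF, with a median log2 difference of -0.24, while Cuzd1 differed by 0.36. The 8 smooth muscle markers summed to 3278 to 4519 in controls and 2638 to 2850 in CF. For 10 endothelial markers of 11 the sum was 2574 to 3092 and 1824 to 2476. Neither sum overlapped between the groups, but in each the largest difference was that of a single gene, Acta2 or Eng. Acta2 read 330 to 1007 and 73.1 to 98.7, and passed the filter only through the controls. Eng read 991 to 1243 and 424 to 866. Of 5 smooth muscle markers tested 4 read lower, while Des differed by 0.36. Cnn1, too dim to test, read 14 to 21.3 in controls and 47.5 to 108 in CF. Of 6 endothelial markers tested 5 read lower, Pecam1 by -0.02, while Kdr differed by 0.18. Adipocyte markers (9 measured of 11) summed to 5797 to 20791 and 4534 to 6714; all 7 tested read lower in CF, with a median log2 difference of -1.18. The 9 markers of macrophages and granulocytes summed to 4418 to 6459 and 3670 to 4530, with 5 of 6 tested lower and a median of -0.78. Cd14 went the other way, at 906 to 1252 in controls and 1318 to 1665 in CF (0.41 ± 0.20). Intestinal epithelium (6 of 9 measured, all too dim to test) summed to 234 to 302 and 329 to 525, higher in CF without overlap. The largest difference in that sum was of Cdx1, at 45 to 82.8 in controls and 87.7 to 203 in CF. Fabp2 went the other way, at 49.4 to 96.7 and 25.2 to 52.6. Vil1, which defines the type, and Cdx2 were under the floor on all arrays, which no marker of the other lists named here was. The part of tissue composition, or of these duct markers, in the Atp1b3 difference was not tested. The 3'/5' signal ratio is a sign of RNA quality. For Gapdh it was 0.798, 1.45 and 0.838 in controls and 0.723, 0.756 and 0.873 in CF. For Actb it was 1.74, 2.16 and 1.93 in controls and 1.75, 2.14 and 1.94 in CF. The Actb ratio thus followed the title suffix, with replicate 2 highest in both genotypes. Without control replicate 2, the highest array for both genes, the Atp1b3 difference was 0.68.

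The other pump genes gave smaller or less certain differences. Atp1b1, the beta-1 subunit, gave 447, 462 and 293 on the control arrays and 223, 427 and 419 on the CF arrays with its brighter probe set, for a log2 difference of -0.20 ± 0.34. Its dim probe set read 67.4 to 98.7 in controls and 65.2 to 195 in CF. The Atp1b1 readings overlapped on both probe sets. Atp2a2, the calcium pump that refills the endoplasmic reticulum, read 319, 208 and 434 in controls and 429, 412 and 516 in CF. Only control replicate 3 reached the CF range, and the log2 difference was 0.56 ± 0.31 (adjusted p = 0.74 in limma); it was 0.27 without control replicate 2, the lowest array, and 0.81 without control replicate 3. Fxyd3, a small membrane protein that modulates the sodium pump, read 956 to 1415 in controls and 1340 to 1625 in CF (0.29 ± 0.20). Atp4a, the acid pump subunit known from the stomach, read 725 to 854 in controls and 614 to 793 in CF (-0.15 ± 0.20). Its partner subunit in the stomach, Atp4b, read 27.7 to 54.2 over the 6 arrays, near the floor. Of other stomach markers measured, Tff1 read 1416 to 2324 in controls and 1334 to 1375 in CF. Cblif, too dim to test, read 51 to 58 in controls and 130 to 424 in CF. Whether the Atp4a signal came from stomach tissue was not tested.

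**Figure D3:**
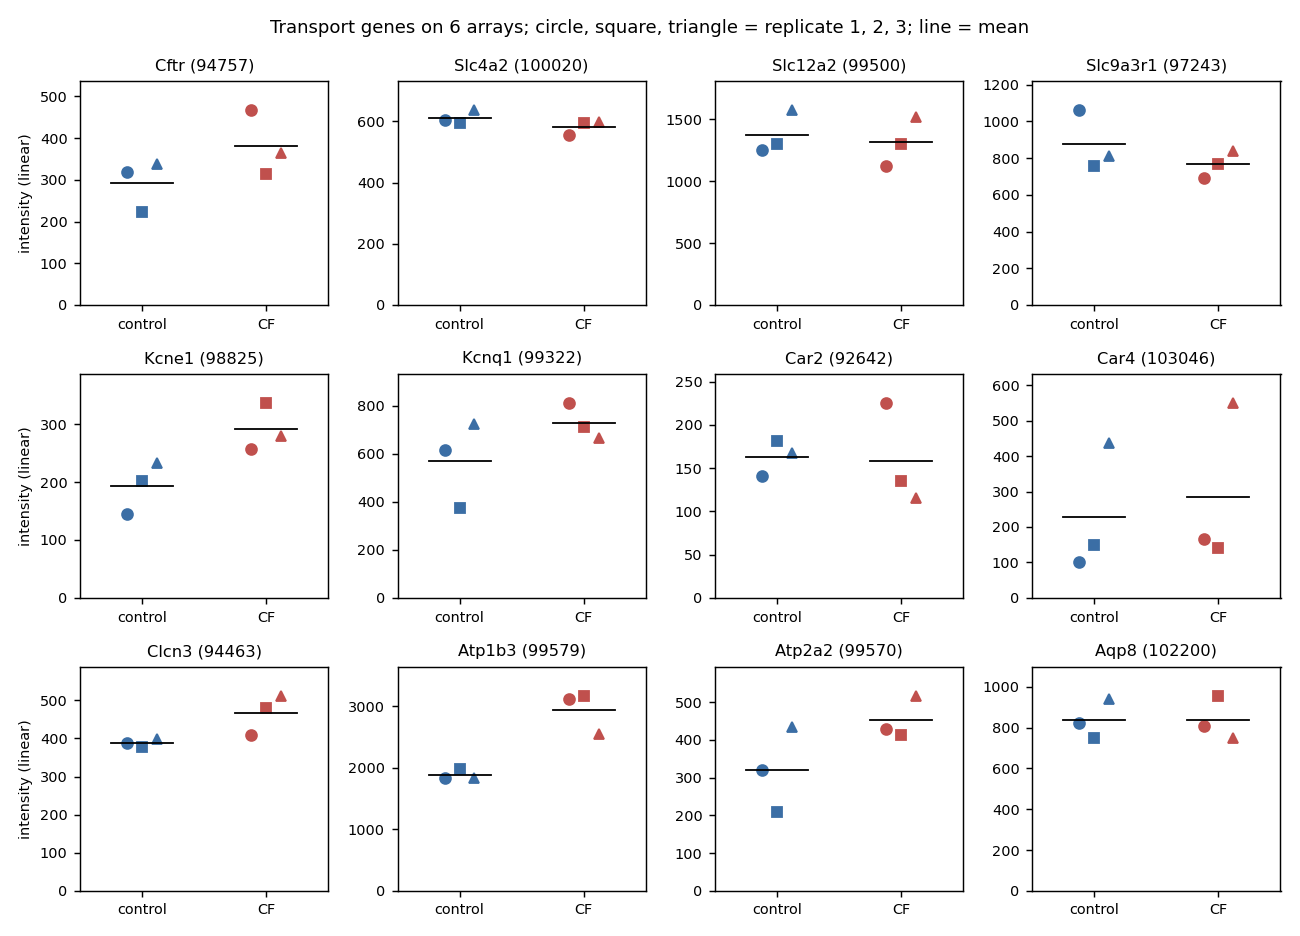
Intensity (linear axis from 0) of 12 transport probe sets on the 3 control (blue) and 3 CF (red) arrays; circles, squares and triangles are replicates 1, 2 and 3, and the line is the group mean. Atp1b3 and Kcne1 separate the groups by the widest margin, while Slc12a2 and Car4 are highest in replicate 3 of both groups.

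Potassium channels keep the membrane voltage that drives anions out of epithelial cells, and 5 of their 7 probe sets were tested. Kcne1, an accessory subunit that slows the opening of Kcnq1, read 145, 202 and 232 in controls and 257, 336 and 279 in CF. The CF arrays were all above the controls (1.52-fold; log2 difference 0.61 ± 0.33), but the adjusted p was 0.73 in limma and 0.49 with the suffix as a block. The margin was narrow, between 232 in the highest control and 257 in the lowest CF array. Kcnq1, its pore-forming partner, had 2 probe sets that pointed in opposite directions. One read 615, 373 and 723 in controls and 811, 710 and 664 in CF (0.40 ± 0.27), and the other 868 to 1116 and 828 to 1048 (-0.10 ± 0.19). Kcnn4, a calcium-activated channel, read 402, 375 and 61.8 in controls and 354, 213 and 302 in CF. Its difference of 0.43 ± 0.68 rested on control replicate 3, the low array, and was -0.45 without it. Kcnma1, the large-conductance calcium-activated channel, overlapped widely at 185 to 306 and 140 to 344 (-0.18 ± 0.41). Kcnj15, an inward rectifier, was too dim to test and read 8.9 to 49.7 in controls and 9.1 to 100 in CF over its 2 probe sets.

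Among the genes that load chloride and bicarbonate into cells, none separated the groups. Slc12a2, the sodium-potassium-chloride cotransporter, read 1256, 1300 and 1574 in controls and 1122, 1299 and 1519 in CF. The groups overlapped throughout, and the log2 difference was -0.07 ± 0.19 with a 95% interval of -0.50 to 0.35. Slc4a2, a chloride-bicarbonate exchanger, read 604, 593 and 636 in controls and 556, 593 and 596 in CF, for a difference of -0.07 ± 0.19 (interval -0.50 to 0.36). These intervals leave out a 2-fold change but not a smaller one. Slc9a3r1, the scaffold protein that binds the tail of Cftr and of sodium-proton exchangers, read 1061, 757 and 810 in controls and 692, 769 and 837 in CF. Only control replicate 1 lay above the CF range (-0.18 ± 0.21). Slc4a4, the sodium-bicarbonate cotransporter of the basolateral membrane, was too dim to test: it read 12.3, 42 and 87 in controls and 57.4, 97 and 116 in CF. Each CF array of Slc4a4 exceeded the control of the same suffix, yet the groups overlapped and the lowest values were under the floor. Slc26a2, a sulfate transporter, read 28.2 to 57.2 in controls and 36.5 to 49.4 in CF, also too dim.

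Slc4a1, the anion exchanger known best from red cells, read 495, 792 and 632 in controls and 777, 757 and 470 in CF (log2 difference 0.05 ± 0.28). The red cell gene Hba-a1, for alpha globin, read 8426 to 8607 in controls and 6506 to 8751 in CF. Over 5 measured red cell markers of 11 the sum was 10076 to 10693 in controls and 8096 to 11334 in CF, with 0 under the floor on all arrays. In CF replicate 3 the globin signal was highest and Slc4a1 lowest. Whether Slc4a1 signal came from blood was not tested.

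Carbonic anhydrases, which interconvert carbon dioxide and bicarbonate, had no probe set that separated the groups. Car2, the cytosolic enzyme of duct cells and red cells, read 141, 181 and 167 in controls and 225, 135 and 116 in CF. CF replicate 1 was highest of all and the other CF arrays lowest of all (-0.09 ± 0.42). Car14, a membrane-bound enzyme, read 352, 586 and 465 in controls and 440, 680 and 517 in CF. Every CF array exceeded the control of the same suffix, by 0.32, 0.22 and 0.15 on the log2 scale, while the groups overlapped (0.23 ± 0.28). Car4, which is anchored to the outer membrane, read 100, 148 and 438 in controls and 165, 141 and 549 in CF on 1 probe set (0.32 ± 0.68). Car12, a transmembrane form, was too dim to test and read 63.3, 96.9 and 264 in controls and 56.1, 40.4 and 311 in CF. For both genes replicate 3 of each genotype was the high array. A second Car4 probe set did not show this, with 182, 70.2 and 197 in controls and 162, 239 and 166 in CF (0.45 ± 0.50).

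Water channels were represented by Aqp1 and Aqp8. Aqp8, an aquaporin of acinar cells, read 821, 751 and 939 in controls and 806, 954 and 748 in CF. Its group means were 837 ± 95.2 and 836 ± 106, with a 95% interval of the log2 difference of -0.45 to 0.44. Aqp1, found in ducts, capillaries and red cells, gave 416, 519 and 189 on the control arrays and 452, 542 and 178 on the CF arrays with its brighter probe set (0.03 ± 0.51). Replicate 3 was the low array in both genotypes, and within each suffix the genotypes differed by no more than 0.12 in size. The dimmer Aqp1 probe set read 197, 91.6 and 149 in controls and 79.7, 87.6 and 151 in CF (-0.45 ± 0.53) and did not repeat that pattern.

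The remaining chloride channel genes, Clcn2, Clcn3, Clcn4, Clca1 and Clca3a1, gave 10 probe sets, 8 of them tested. Clcn3, an intracellular chloride-proton exchanger, had 4, which disagreed. One read 387, 377 and 398 in controls and 410, 480 and 511 in CF, with all CF arrays above the controls (0.26 ± 0.22, adjusted p = 0.84 in limma). That separation was lost with quantile normalization or median scaling. The brightest read 1365 to 1831 and 1252 to 1909 (0.02 ± 0.22), and the last pair differed by -0.32 ± 0.29 and -0.21 ± 0.33. Clcn2, a plasma membrane chloride channel, read 411 to 542 in controls and 295 to 531 in CF (-0.22 ± 0.28). Clcn4, a relative of Clcn3, read 117 to 346 and 223 to 321 (0.41 ± 0.44), and a dim probe set 68.5 to 120 and 51.6 to 196.

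The Clca genes encode secreted proteins that modulate calcium-activated chloride currents. Clca1 differed by -0.30 ± 0.50 and 0.08 ± 0.34 on its 2 probe sets. Clca3a1 was too dim to test but read 121, 191 and 145 in controls and 96.7, 86.8 and 109 in CF, with all CF arrays below the controls. It was the 1 dim transport probe set of 10 whose groups did not overlap, against 4.53% (CF higher) and 4.85% (CF lower) of the 4683 probe sets too dim to test. The name Clca2 is also an older name of Clca1, so the Clca1 probe sets were counted once, under that gene.

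Replicate numbers here follow the suffix of the sample titles, and arrays of the same suffix moved together in some transport genes. The suffix accounted for 99.5% of the variation in the brighter Aqp1 probe set, 95% in the brightest Clcn3 one, 93.6% in the Car4 one, 91.1% in Slc12a2 and 84.4% in Car14. These are descriptions of probe sets picked for a high value. Over the 30 transport probe sets the median share of the suffix was 42.4%, against 47.3% over all probe sets, and that of genotype 14.1% against 14.4%. The suffix share was above 50% in 33.3% of transport probe sets and 47% of all. Suffix spans 2 degrees of freedom and genotype 1, so the shares are not on equal terms. No source used here says what the suffix stands for.

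**Figure D4:**
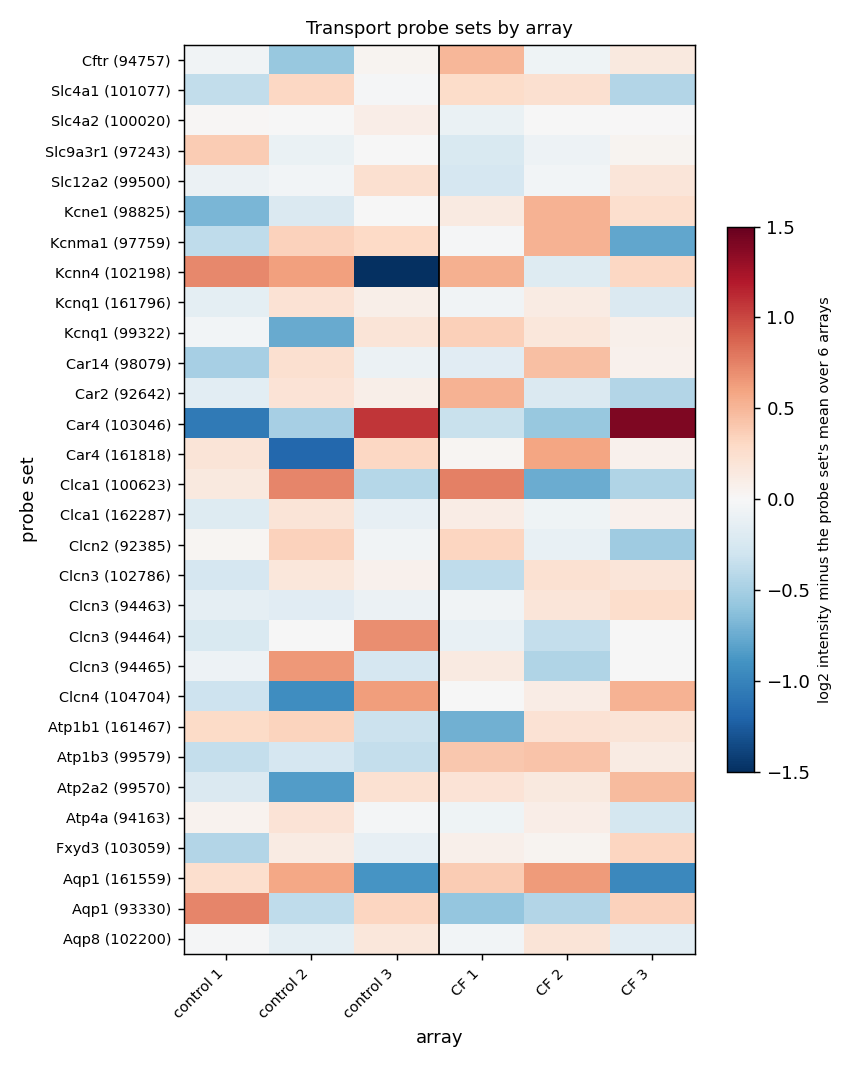
Heat map of the 30 transport probe sets tested on the 6 arrays; colour gives log2 intensity minus the probe set's own mean, and is saturated beyond 1.5 in size, which affects Kcnn4 in control replicate 3. A Car4 row is high and an Aqp1 row low in replicate 3 of both genotypes, and Atp1b3 changes colour at the line between control and CF.

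Other genes of the same families, and known regulators of Cftr and of duct secretion, were read from a list chosen by function. Of 225 such genes 125 had a probe set and 78 were bright enough to test, with 98 probe sets. None passed in limma (0 of 98, against 0.0646% of all). At an unadjusted p under 0.05 there were 5, 4 higher and 1 lower in CF, against 7.38% of all probe sets, so the 5 of 98 were not above the background. The median log2 difference over all 98 was -0.02.

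The 3 genes of smallest p in each direction are given as values. Of those higher in CF, the smallest p belonged to P2rx4, an ATP-gated cation channel that read 1126 to 1285 on control arrays and 1619 to 1710 on CF arrays. Its log2 difference was 0.48 ± 0.16 (adjusted p = 0.51 in limma). Derl1, part of the machinery that removes misfolded proteins, Cftr among them, from the endoplasmic reticulum, read 253 to 382 in controls and 455 to 610 in CF (0.79 ± 0.26), while a second Derl1 probe set overlapped and differed by 0.18 ± 0.20. Adcy6, an adenylyl cyclase that makes the cAMP by which Cftr is opened, read 615 to 880 and 971 to 1384 (0.65 ± 0.22). On the first-named probe sets of these 3 genes the groups did not overlap.

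Of those lower in CF, only Car8 had an unadjusted p under 0.05. It encodes a relative of carbonic anhydrases without enzyme activity that binds the inositol trisphosphate receptor, and read 423, 307 and 303 in controls and 157, 53.8 and 198 in CF, with no overlap (-1.52 ± 0.51, adjusted p = 0.54 in limma). Clic4, of the intracellular chloride channel family, read 2145 to 2462 and 1661 to 2147 on 1 probe set (-0.34 ± 0.16), and differed by -0.20 and -0.22 on the others. Itpr2, an inositol trisphosphate receptor, read 706 to 1051 and 474 to 781 (-0.52 ± 0.26). Clic4 and Itpr2 did not reach an unadjusted p under 0.05, and their groups overlapped.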

How the data were processed

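Per the labels, TRIzol-extracted RNA of 1 mouse was hybridised to each array. The authors deposited 1 linear intensity for each probe set and array; no source used here names the software or scaling. The array means without the lowest and highest 2% were 500.27 to 500.3, so the authors' scaling was kept. The floor, filter and 66 omitted control probe sets left 7739 probe sets, compared on the log2 scale in limma 3.58.1 (R 4.3.3; lmFit, and eBayes with an intensity trend), with Benjamini-Hochberg adjustment over all of them. The fit was tested on simulated data. Probe sets took names from the platform annotation, updated through RefSeq gene identifiers.

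Members and lists were chosen with earlier results of these data known. Full values were given for Cftr, for genes that separated the groups and for a named gene of each role; other lists gave up to 3 genes per direction by p. Groups came from the described genotype, replicate numbers from the title suffix. Deviations from group means correlated at 0.23 to 0.26 between arrays of the same suffix and -0.18 to -0.05 between others, so the suffix was taken to pair arrays.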

Additional observations from a re-analysis of the deposited data

How the results depend on the processing

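Across the alternatives of scaling, floor, filter, variance model, array weights, replicate block, threshold and left-out arrays, the number of transport probe sets past the threshold was 0 in each, and the lowest adjusted p was 0.14. The count for the whole table, 5, was 8 with median scaling, 10 with the floor at the 40th percentile, 1 with no filter, 3 with no intensity trend, 12 with array weights, 10 with the replicate block and 17 at an adjusted p under 0.1. Leaving out single arrays gave 1 to 11: 1 without CF replicate 1 or 2, 8 without CF replicate 3 and 11 without control replicate 2. The number of transport probe sets without overlap, 3, became 4 to 8 when single arrays were left out. It was 6 and 8 without control replicates 2 and 3, and 7 and 5 without CF replicates 1 and 2. Fewer arrays make separation easier, and the same share over all probe sets was not counted. These numbers are therefore not read as a result about the transport genes. The replicate block changed no call of a transport gene. The filter at the 60th percentile leaves out dim members such as Kcne1.

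Of 470 values of single probe sets under alternatives, 20 took the opposite sign, counted on values rounded to 2 decimals. Aqp8 could not be counted, because its difference in the main fit rounded to 0. With quantile normalization its difference was 0.02. No transport probe set was called in any fit, so none of the 20 could belong to a called one. Car2 differed by 0.02 with the floor at the 40th percentile. Leaving out single arrays gave -0.12 to 0.29 for Slc4a1, -0.29 to 0.94 and -0.03 to 0.72 for the Car4 probe sets, -0.11 to 0.21 and -0.39 to 0.05 for 2 Clcn3 probe sets, and -0.40 to 0.52 for the brighter Aqp1 probe set. The ranges were -0.45 to 0.90 for Kcnn4, -0.18 to 0.04 for Slc12a2, -0.41 to 0.11 for Atp1b1, -0.37 to 0.11 for Car2 and -0.48 to 0.16 for Kcnma1. The causes were not tested. Signal near the floor limits what can be said of Slc4a4, Slc26a2, Kcnj15, Car12 and Clca3a1.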
